A study of Mus musculus with 9 samples.

Results

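Plexins are the cell-surface receptors of the semaphorins, a large family of guidance proteins. The family holds 9 genes in the mouse, and all 9 were found by gene symbol among the 27179 genes of the deposited table: Plxna1, Plxna2, Plxna3, Plxna4, Plxnb1, Plxnb2, Plxnb3, Plxnc1 and Plxnd1. The family was chosen by the measured difference of Plxna2 between the groups of these same libraries. Its group difference, and those of its relatives, are therefore given as a description and support nothing.

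A plexin spans the membrane once and carries a semaphorin-binding domain outside the cell and a GTPase-activating domain inside it. On binding a semaphorin, alone or with a neuropilin as co-receptor, it switches off Ras-type and Rap-type GTPases and changes RhoA and Rac signalling, so that the cytoskeleton and integrin adhesion of the cell are altered. Plexins are best known from the guidance of axons. They also act in blood vessels, immune cells and epithelia, and liver holds such cells besides its hepatocytes.

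The libraries came from livers of C57BL/6J mice with a wild-type genotype in the labels, and the labels name no sex. At 17 months of age, the mice received 3e+11 vector genomes of AAV8-TBG-saCas9 through the retro-orbital route. This viral vector expresses a small Cas9 nuclease from TBG, a promoter active in hepatocytes. It carried a U6-driven guide RNA against Rosa26, a locus that serves as a harmless cutting site (sgRosa26, n = 4), or against Ccnd1, which encodes cyclin D1 (sgCcnd1, n = 5). Both groups thus received the vector, the nuclease gene and a guide. A piece of the m-lobe was taken 3 weeks later and its poly(A) RNA sequenced in bulk, so that transcripts of all cell types of the lobe were measured together. Fewer cells of a type and less RNA per cell cannot be told apart in such samples. The promoter directs the nuclease to hepatocytes, and editing was not measured in any cell type here.

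The sgRosa26 libraries are called A to D and the sgCcnd1 libraries E to I, after the order of their columns, because the column names hold no replicate number. They held 10.8 to 20.2 M reads assigned to genes (M, mega). Y-linked transcripts (Ddx3y, Eif2s3y, Kdm5d and Uty, summed) stood at 1619 to 2834 normalized counts in 8 libraries and at 2.00 in library H. Xist was also at 2.00 in H, within the 0 to 3.92 of the other libraries. Results without H are given below. Ccnd1 itself fell from 744 ± 110 normalized counts (SD, n = 4) to 362 ± 40.6 (SD, n = 5), with no overlap between groups (limma adjusted p = 0.0116; exact two-sided permutation p = 0.00794, the smallest possible). Its limma adjusted p went over 0.05, to between 0.0559 and 0.0852, when B, D, F, H or I was dropped. Hepatocyte markers were abundant in every library, with Alb near the top of the table. Their summed level was 1687290 to 1984380 normalized counts in sgRosa26 and 1562300 to 2045150 in sgCcnd1.

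The 9 genes lie on 6 chromosomes, in coordinates of GRCm38 from GENCODE M21. Plxna2 lies at chr1:194618218-194816869 on the plus strand. Plxna1 (chr6:89316314-89362620, minus strand), Plxna4 (chr6:32144268-32588192, minus strand) and Plxnd1 (chr6:115954811-115995005, minus strand) share chromosome 6. Plxna3 (chrX:74329066-74344689) and Plxnb3 (chrX:73757090-73772514) are both on the X chromosome, plus strand. Plxnb1 is at chr9:109095389-109119917 on the plus strand, Plxnb2 at chr15:89155549-89180788 and Plxnc1 at chr10:94790866-94944835, both on the minus strand. The exons of Plxna2 shared no base with those of another annotated gene. Antisense genes overlapped 10.7% of the exon bases of Plxna1, 2.68% of those of Plxnb1 and 0.78% of those of Plxna4. A gene on the same strand, Gm48718, shared 1.38% of the exon bases of Plxnc1, where reads cannot be told apart with any use of strand. Use of strand in the counting is not given in the sources used here, so reads of these antisense genes cannot be told apart from those of the plexins. The table also lists Plxna4os1, an antisense transcript within the span of Plxna4 with no exon base in common, at 0.762 to 6.80 normalized counts.

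Because the members are related in sequence, the coding sequences were compared for stretches in which a read could be assigned to the wrong gene. Between the 4 class A plexins, 66.9% to 70.5% of aligned coding bases were identical, with Plxna2 and Plxna4 the closest pair. Class B plexins shared 64.1% to 67.4% with each other, and plexins of different classes 60.2% to 64.2%. The longest run of bases shared exactly by transcripts of any pair was 33, between Plxna1 and Plxna4. For Plxna2 the longest run with any other plexin was 26 bases, shared with Plxna3 and also, elsewhere, with Plxna4. The coding window of 90 bases around the run shared with Plxna3 is printed below for the class A genes, because it holds one of these longest runs. It covers coding bases 4430 to 4519 of Plxna2, counted from the A of the start codon. Capitals mark bases that differ from Plxna2.
Plxna2: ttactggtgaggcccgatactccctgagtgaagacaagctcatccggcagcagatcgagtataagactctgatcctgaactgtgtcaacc
Plxna1: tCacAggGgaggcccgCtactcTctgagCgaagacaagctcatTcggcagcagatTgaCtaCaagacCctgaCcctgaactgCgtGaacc
Plxna3: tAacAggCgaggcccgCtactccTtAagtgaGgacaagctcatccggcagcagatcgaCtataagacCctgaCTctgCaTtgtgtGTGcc
Plxna4: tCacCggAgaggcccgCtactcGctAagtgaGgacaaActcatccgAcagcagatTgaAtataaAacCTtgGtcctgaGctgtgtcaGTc
Within this window 14 bases differed in Plxna1, 16 in Plxna3 and 18 in Plxna4. The read length is not given in the sources used here. A read longer than 33 bases could not match transcripts of a pair of plexins exactly.

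**Figure D1:**
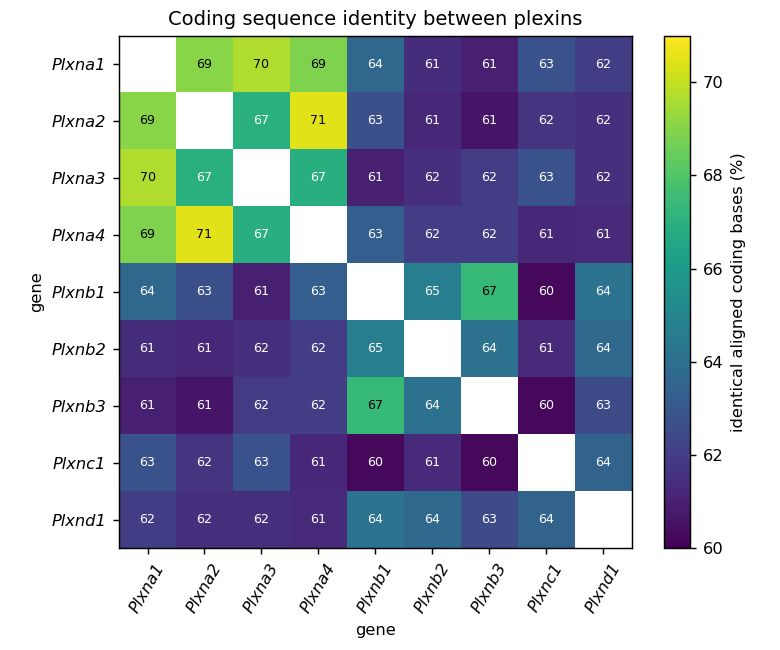
Percentage of aligned coding bases that are identical for each pair of plexin genes, from the longest annotated coding sequence of each. The class A block stands out, with Plxna2 and Plxna4 at 70.5%, and no pair reaches beyond that value.

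Promoters were read for the members for which RefSeq sequence was at hand, as the 250 bases before the annotated start (GRCm38.p6). There were 8 such windows for 7 genes, with 2 starts for Plxnb2 and none used for Plxna1 and Plxna4. RefSeq and GENCODE starts can differ, and the RefSeq start of Plxna2 lies downstream of the GENCODE start given above, so that its window is inside the GENCODE gene span. The windows of Plxna2, whose 2 groups did not overlap, and of the upstream start of Plxnb2, the most abundant plexin, whose groups did overlap, are printed 5′ to 3′ on the gene's own strand. Capitals mark the GC box GGGCGG on either strand.
Plxna2, chr1:194619579-194619828: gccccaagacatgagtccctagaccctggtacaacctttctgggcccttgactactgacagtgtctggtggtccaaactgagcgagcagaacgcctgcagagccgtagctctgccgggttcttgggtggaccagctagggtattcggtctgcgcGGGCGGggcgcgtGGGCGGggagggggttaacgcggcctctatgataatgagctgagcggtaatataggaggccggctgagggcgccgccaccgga
Plxnb2, chr15:89180789-89181038: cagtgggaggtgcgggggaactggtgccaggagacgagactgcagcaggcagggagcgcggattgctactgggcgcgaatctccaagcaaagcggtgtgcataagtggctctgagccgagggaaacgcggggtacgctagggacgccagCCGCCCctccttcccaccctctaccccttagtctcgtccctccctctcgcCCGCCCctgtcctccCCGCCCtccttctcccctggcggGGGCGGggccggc
The GC box was present in 7 of the 8 windows, against 32.7% of all 32851 promoter windows of this length. GC content was 62.8% for Plxna2 and up to 75.2% for Plxnb1, with a median of 52.4% over all windows. Cyclin D1 acts through the RB protein on E2F factors, and the E2F letters TTTCCCGC and TTTGGCGC were in 0 of the 8 windows (0.895% and 0.417% of all). The E-box CACGTG (6.02% of all) and TATAAA (12.4% of all) were also in 0 of 8. TGACNNNGC, the core of an antioxidant response element, was in the window of Plxnb3 alone (10.2% of all). Both strands were searched for every motif, and these are matches of letters in 1 window per start, not sites.

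The level of each gene was compared per kilobase of exon, since longer transcripts give more reads. Plxnb2, a receptor of class 4 semaphorins that is widely expressed in epithelia, stood highest at a mean of 421 normalized counts per kb over the 9 libraries (range 364 to 466). This was higher than in 88.9% of the 12556 tested genes with a known length. Plxnb1, the receptor of Sema4D, followed at 132 (range 105 to 183). Plxnd1, the receptor of Sema3E known from endothelium, was at 61.7 (range 48.2 to 75.8) and Plxna2 at 38.5 (range 24.9 to 55.8). Their ranges overlapped. Plxnc1, the receptor of Sema7A known from leukocytes, was at 25.1 and Plxna1 at 21.9, again with overlapping ranges. Plxna4 (4.40) and Plxna3 (3.89) were at the low end of the tested genes, above 6.35% and 5.46% of them, and overlapped as well. Plxnb3 had a mean of 0.337 per kb and was under the minimum mean of 10 normalized counts set for testing. Plxnb2 and Plxnb1 together made up most of the plexin signal, with 59.4% and 18.6% of the summed level per kb.

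The order between Plxna2 and Plxnd1 depended on which length was used. The annotated exons of Plxna2 add up to 17.2 kb, of which the coding sequence is 5685 bases. Per kb of coding sequence Plxna2 was at 116 (range 75.3 to 168) and Plxnd1 at 77.9 (range 60.8 to 95.8), which puts Plxna2 above Plxnd1. Per kb of the longest transcript they were at 59.9 and 65.2. Per kb of coding sequence the levels of Plxna4 (10.9), Plxnc1 (44.3), Plxna1 (34.9) and Plxnb1 (199) were also more than 1.5 times those per kb of exon, and Plxna3 was at 5.46. The places of Plxnb2 and Plxnb1 at the top and of Plxnb3 at the bottom were the same with each length.

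**Figure D2:**
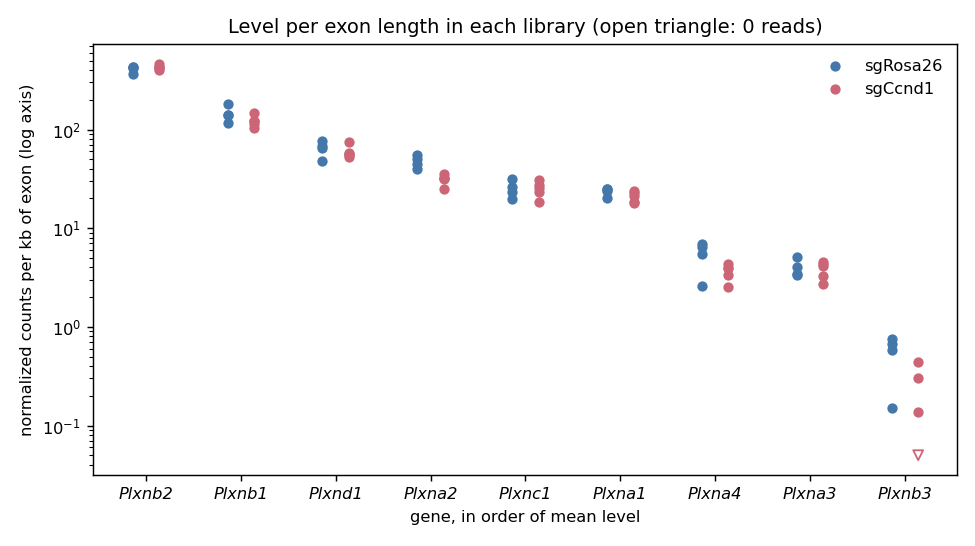
Normalized counts per kb of exon on a log axis for the 9 plexins in order of mean level, with 1 point per library (blue sgRosa26, red sgCcnd1, open triangle for 0 reads). Plxnb2 lies between 364 and 466 in all libraries, and the levels span more than 3 decades down to Plxnb3.

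Plxna2 is a class A plexin that binds Sema6A and Sema6B directly and class 3 semaphorins together with a neuropilin. It stood at 958, 690, 857 and 762 normalized counts in control libraries A to D, and at 552, 428, 549, 546 and 606 in sgCcnd1 libraries E to I. All 5 sgCcnd1 libraries were below the lowest control, B, and library F was lowest of all. The group means were 817 ± 116 (SD, n = 4) and 536 ± 65.4 (SD, n = 5), which is 65.6% of the control level. On the log2(normalized count + 1) scale the difference, sgCcnd1 minus sgRosa26, was -0.60 with a standard error of 0.12. Between libraries of a group the coefficient of variation was 14.2% and 12.2%, where counting error alone would give 3.51% and 4.34%. Without library H the difference was -0.61, and when any single library was dropped it lay between -0.68 and -0.52.

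Plxna2 also made up a smaller part of the family in sgCcnd1. Of the summed normalized counts of all plexins it took 13.4%, 12.2%, 13.2% and 12.3% in A to D. The values were 8.34%, 7.75%, 9.26%, 9.42% and 10.5% in E to I, so the groups did not overlap in this share either. Against Plxnb2 in the same library, the log2 difference of Plxna2 was -2.13 to -1.79 in sgRosa26 and -2.86 to -2.42 in sgCcnd1. Against Plxna1 it was 1.62 to 2.08 and 1.36 to 1.76, which overlap because of libraries B and G. These ratios rest on the same Plxna2 values and are no separate evidence.

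The other class A plexins had overlapping groups. Plxna1, a partner of Trem2 and Tyrobp in myeloid cells, was at 225, 224, 215 and 185 normalized counts in A to D and 204, 167, 162, 192 and 216 in E to I (difference -0.18, standard error 0.11). Plxna4, which with neuropilin 1 receives Sema3A, was at 91.0, 96.4, 77.9 and 36.9 in A to D and 61.7, 35.8, 47.0, 56.0 and 55.4 in E to I. Control library D was thus down among the sgCcnd1 libraries. The difference of Plxna4 was -0.49 with a standard error of 0.26, and -0.80 without D. When another single library was dropped it lay between -0.56 (without E) and -0.34 (without B). Plxna3, which with neuropilin 2 receives Sema3F, was at 26.3 to 40.6 in sgRosa26 and 21.5 to 36.0 in sgCcnd1 (difference -0.06, standard error 0.21). Its sign turned without A or without F.

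Among class B plexins, Plxnb1 was at 1759, 1111, 1349 and 1347 normalized counts in A to D and 1397, 1175, 1168, 1099 and 1005 in E to I (difference -0.24, standard error 0.13). Libraries H and I were below every control, and the other 3 were not. The difference was -0.12 without A, the highest control, and -0.34 without B. Plxnb2 was at 2814 to 3347 in sgRosa26 and 3118 to 3600 in sgCcnd1 (difference 0.06, standard error 0.08), the smallest standard error of the family. The difference was 0.01 without B and 0.03 without E or with 75th percentile scaling. Plxnb3, a receptor of Sema5A in nerve tissue, had 4, 5, 4 and 1 reads in A to D and 0, 1, 2, 0 and 2 reads in E to I. The group means were 3.51 and 1.14 normalized counts, and no difference was tested at such counts.

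Plxnc1 was at 164 to 265 normalized counts in sgRosa26 and 154 to 255 in sgCcnd1. Its difference, -0.01 with a standard error of 0.16, changed sign in 6 of 18 alternatives. Plxnd1 was at 553, 479, 497 and 352 in A to D and 547, 386, 404, 418 and 417 in E to I. Library E was above all controls but A, and control D was the lowest of all 9 libraries. The difference of Plxnd1 was -0.11 (standard error 0.14), and it was -0.24 without D, -0.19 without E, -0.07 without F and -0.02 without A.

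**Figure D3:**
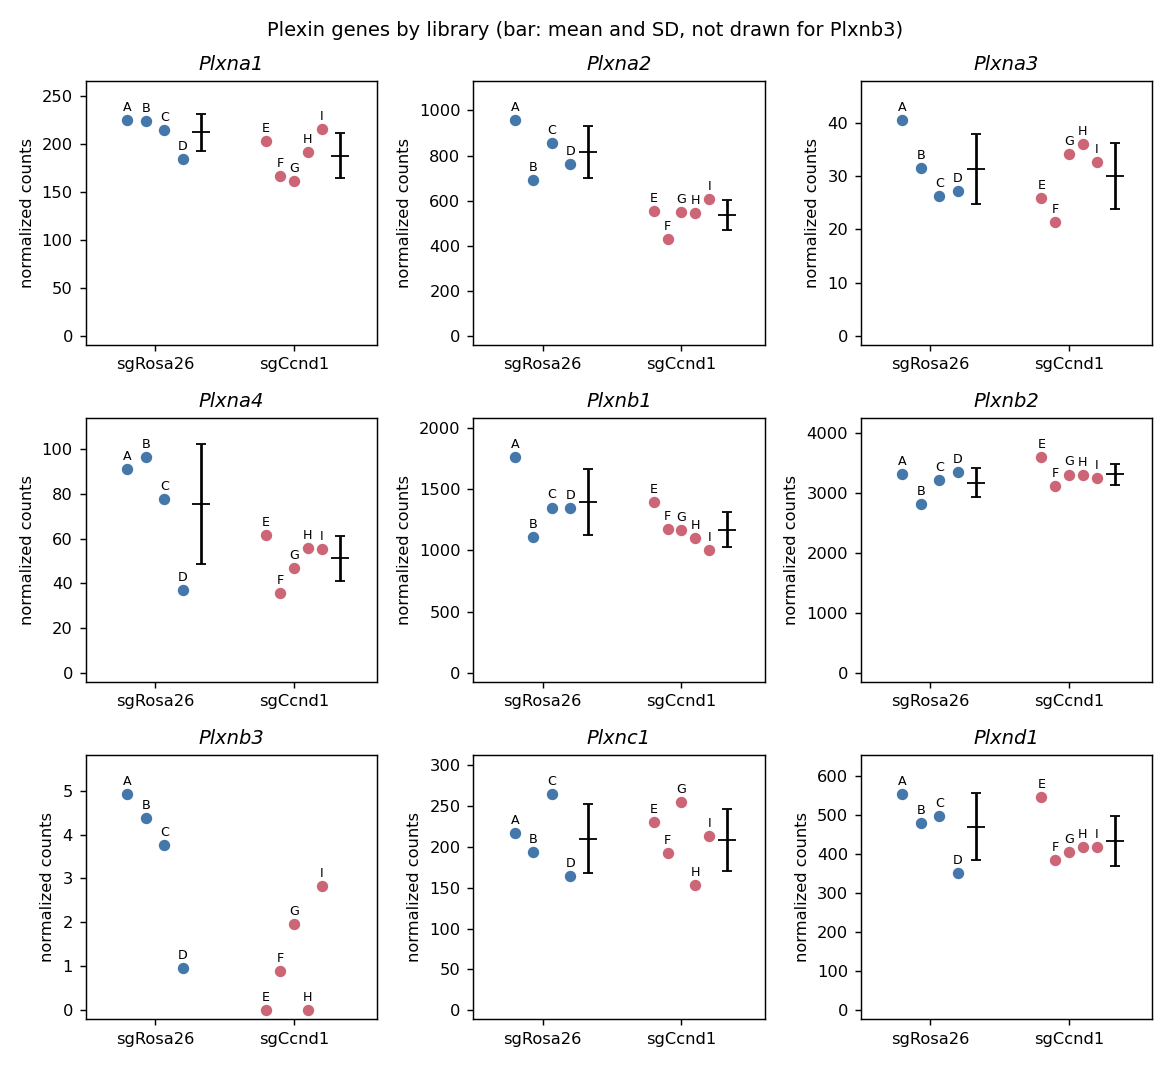
Normalized counts of each plexin in the 4 sgRosa26 (blue, A to D) and 5 sgCcnd1 libraries (red, E to I), with the group mean and SD as a black bar (not drawn for Plxnb3). Only in the Plxna2 panel do all sgCcnd1 points (428 to 606) lie below all control points (690 to 958).

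Read against all 12993 genes tested, the family holds 1 gene whose groups did not overlap among its 8 members with enough counts to test, where 1.97% of all genes were lower without overlap. By limma, 0 of the 8 passed an adjusted p under 0.05, against 0.0077% of all genes (Ccnd1 alone), and 1, Plxna2, was lower at an unadjusted p under 0.05 (5.74% of all). edgeR on the recovered reads called 0 of 8 (0.0077% of all). DESeq2 called 1 of 8 as lower, Plxna2, against 0.539% of all genes, also without library H (0.207% of all). Of the 8 differences, 7 were below 0, against 47.1% over all genes, with a median of -0.14 against 0.01. Nothing is read from these counts, since the same contrast chose the family.

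The semaphorins are the ligands of the pathway, and 15 of the 20 listed were tested. By limma 0 were called in either direction, with 0 higher and 3 lower at an unadjusted p under 0.05, against 5.22% and 5.74% of all genes. DESeq2 called 1 as lower, Sema4g (0.539% of all genes), but 0 without library H (0.207%), and edgeR called 0. Sema4g, a class 4 semaphorin, had the highest level of the list, 9051, 8995, 10367 and 9361 normalized counts in A to D and 8235, 7965, 7976, 8099 and 7914 in E to I. Its groups did not overlap, as for 1.97% of all genes in this direction (difference -0.23, standard error 0.08, limma adjusted p = 0.334). Sema3f, a ligand of neuropilin 2 and Plxna3, was at 104 ± 10.7 (SD, n = 4) and 80.1 ± 8.90 (SD, n = 5; limma adjusted p = 0.334). Sema4d, the ligand of Plxnb1, was at 59.8 ± 9.68 and 36.9 ± 12.8 (limma adjusted p = 0.337). The groups of both overlapped. Sema6d was at 273 ± 50.4 and 226 ± 25.8, Sema4a at 1854 ± 77.9 and 1981 ± 251, and Sema4b at 112 ± 5.27 and 128 ± 23.5 (limma adjusted p of 0.504, 0.763 and 0.698). The median difference over the tested ligands was -0.24, against 0.01 over all genes.

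Both direct ligands of Plxna2 named above, Sema6a and Sema6b, were detected in every library. Per kb of exon, Sema6a was above 19.3% and Sema6b above 30.2% of the tested genes. Sema6a was at 138, 126, 141 and 81.6 normalized counts in A to D and 121, 84.2, 109, 74.0 and 126 in E to I. Sema6b was at 77.5 to 94.2 in sgRosa26 and 83.2 to 127 in sgCcnd1. Neither passed (limma adjusted p of 0.683 and 0.679), and the groups overlapped for both. Sema3e, a ligand of Plxnd1, had at most 1.23 normalized counts in any library, and Sema7a, a ligand of Plxnc1, at most 8.77. Sema4a, which is also known to bind Plxnd1, was among the most abundant of the list, as given above.

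Co-receptors and partner receptors were tested for 12 of 14 genes, and 0 were called by limma, edgeR or DESeq2. At an unadjusted p under 0.05 there were 2 lower (5.74% of all genes) and 0 higher (5.22%). These were Tyrobp, the signalling adaptor of Trem2 (means of 146 and 108), and Cd72, a lymphocyte receptor of Sema4D (means of 54.7 and 32.4), both with a limma adjusted p of 0.334. Trem2 was at 19.2 ± 7.78 and 11.9 ± 3.86 (limma adjusted p = 0.490). Neuropilin 1 (Nrp1), the co-receptor for Sema3A, was at 1461 ± 411 and 1531 ± 98.2 (limma adjusted p = 0.826). Neuropilin 2 (Nrp2) was at 410 ± 21.5 and 457 ± 60.1. Met, Kdr and Itgb1, which couple to class B plexins, to Plxnd1 or Plxna1, and to Sema7A, had differences of 0.09, 0.09 and 0.15. The median over the list was -0.01, and it lay between -0.10 and 0.11 in the alternatives.

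Of the 39 genes that carry the signal inside the cell, 35 were tested and 0 were called by limma, edgeR or DESeq2. At an unadjusted p under 0.05, 4 were lower (5.74% of all genes) and 1 higher (5.22%). Dpysl2 encodes CRMP2, a tubulin-binding protein that mediates semaphorin 3A signals. It was at 118, 194, 143 and 138 normalized counts in A to D and 114, 117, 94.0, 97.0 and 76.6 in E to I, without overlap (difference -0.56, standard error 0.16, limma adjusted p = 0.282). Of the 35 tested genes 1 had groups without overlap, where 1.97% of all genes were lower without overlap. Sh3bp1, a GTPase-activating protein for Rac, had a difference of -0.63, and the Ras-type GTPase Mras one of -0.42. Rap1b, a GTPase that plexins switch off, was the gene with the positive difference, 0.33 (limma adjusted p = 0.409). The abundant members Rhoa, Rac1, Cfl1 and Arhgef12 had differences between -0.14 and 0.12. The median of the list was -0.06. It was -0.09 with 75th percentile scaling, -0.03 without D, F or I, and 0.01 over the members whose mean reached 100 normalized counts.

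**Figure D4:**
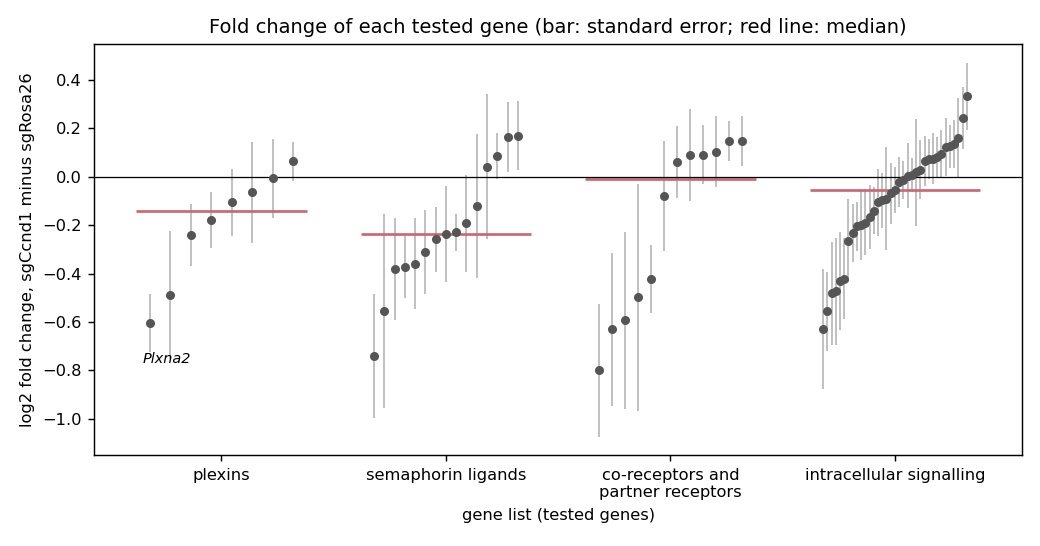
Log2 fold change (sgCcnd1 minus sgRosa26) of each tested gene in the plexin family and the 3 pathway lists, with its standard error and the list median as a red line. Plxna2 at -0.60 is the lowest plexin, and the ligand median lies at -0.24.

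Marker genes of the cell types in the lobe were summed in each library. The counts of markers at an unadjusted p under 0.05 stand against 5.74% of all genes lower and 5.22% higher. Monocyte, dendritic cell and neutrophil markers summed to 1100 to 1339 normalized counts in sgRosa26 and 836 to 950 in sgCcnd1, so that 5 of 5 sgCcnd1 libraries were below all controls, as for Plxna2. Most of this sum was Lyz2, at 991 ± 69.9 and 733 ± 60.7. Without Lyz2, a sum taken after seeing the data, the groups overlapped, with control D at 203 and library F at 207, and 4 of 5 sgCcnd1 libraries were below all controls. By limma 0 of 8 tested markers of this list were called and 3 were lower at an unadjusted p under 0.05, DESeq2 called 1 as lower (Lyz2; 0.539% of all genes), and none of its 9 genes was at 0 throughout. T and NK cell markers summed to 107 to 289 and 53.0 to 193, with 4 of 5 sgCcnd1 libraries below all controls and 0 of 6 tested markers called. All 6 were lower at an unadjusted p under 0.05, with a median difference of -1.24, against 0.01 over all genes. The part of both lists in the difference of Plxna2 was not tested. The sums of the other lists overlapped, with 4 stellate cell and fibroblast, 1 cholangiocyte and 1 B and plasma cell marker lower at an unadjusted p under 0.05 and none of the tested markers of those 3 lists higher. Endothelial markers (10 of 10 tested, 0 called) summed to 3504 to 5126 and 3597 to 5272, with control D lowest and library E highest. Stellate cell and fibroblast markers (9 of 9 tested, 0 called) summed to 3865 to 6465 and 3458 to 5301. Kupffer cell markers, led by Cd5l and Clec4f, summed to 2320 to 3144 and 2148 to 2810 (7 of 7 tested, 0 called). Cholangiocyte markers summed to 939 to 1915 and 756 to 1175 (5 of 6 tested, 0 called). Smooth muscle and nerve markers summed to 209 to 317 and 179 to 275, with the Schwann cell marker Sox10 at 0 in all 9 libraries. B and plasma cell markers, dominated by Xbp1, which hepatocytes also express, summed to 2585 to 3794 and 2596 to 4769 (7 of 7 tested, 0 called).

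**Figure D5:**
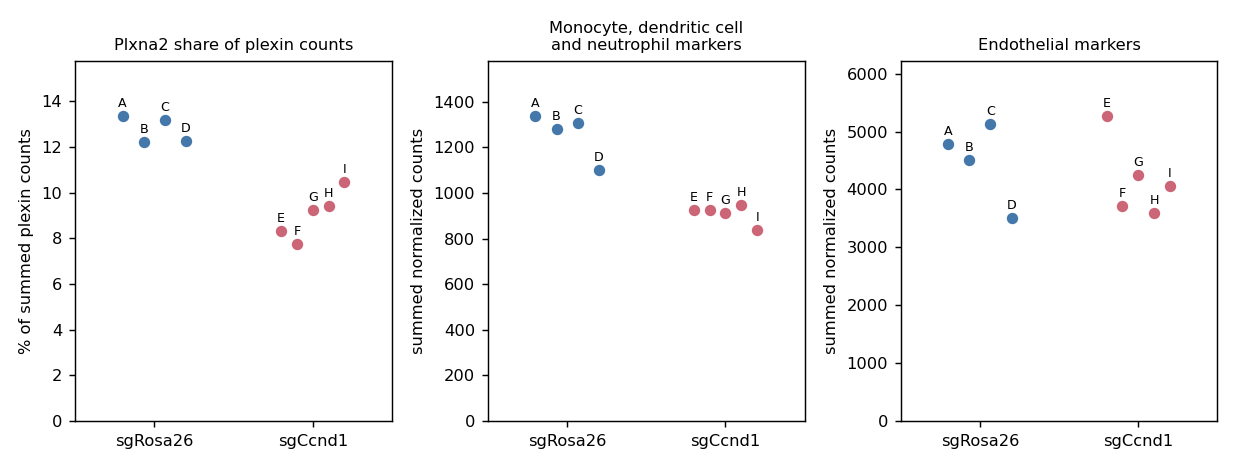
Plxna2 as a share of all plexin counts (left), and summed normalized counts of monocyte, dendritic cell and neutrophil markers (middle) and endothelial markers (right), with 1 point per library. The Plxna2 share (12.2% to 13.4% against 7.75% to 10.5%) and the middle sum do not overlap between groups, and the endothelial sum does. Without Lyz2 the middle sum overlaps as well.

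The members were also set against the cell markers from library to library within groups. With group means subtracted, Plxnd1 had a Pearson r of 0.89 with the mean log2 level of the endothelial markers over the 9 libraries, and of 0.79 with the stellate cell and fibroblast markers. Plxna4 had 0.68 and 0.73, and Plxnc1 0.77 with the endothelial markers. Plxnc1 also had 0.61 with the monocyte, dendritic cell and neutrophil markers and -0.56 with the Kupffer cell markers. Plxnb1 had 0.60 with the hepatocyte markers. Plxna1 had 0.69 with the stellate cell markers. For Plxna2 the highest value over the 9 lists was 0.30, with endothelial markers, and it was 0.26 with the monocyte, dendritic cell and neutrophil markers. Its largest value in size was negative, -0.38 with smooth muscle and nerve markers. It was -0.28 with T and NK cell markers and 0.03 with Kupffer cell markers. Between members, the highest Pearson r were those of Plxna4 and Plxnd1 (0.85, Spearman rho 0.80), Plxna1 and Plxna4 (0.79 and 0.72) and Plxnb1 and Plxnb2 (0.74 and 0.58). For Plxna2 the order depended on the measure. By Pearson r the nearest were Plxna3 (0.65, rho 0.43) and Plxnb2 (0.61, rho 0.45), and by Spearman rho Plxnc1 (0.58) and Plxnd1 (0.57). These are descriptions over 9 libraries of the same tissue that differ in depth, and in such numbers single libraries weigh heavily.

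The genes whose level followed Plxna2 most closely over the 9 libraries were Nprl3 (Pearson r = 0.96, Spearman rho = 0.88), Asap3 (0.96 and 0.93), Ccdc162 (0.93 and 0.88), P2rx7 (0.92 and 0.88) and Cybb (0.91 and 0.93). They were sought among genes whose mean reached 50 normalized counts. These values include the difference between groups, which chose Plxna2. Asap3, a GTPase-activating protein for Arf, was at 346 ± 39.3 in sgRosa26 and 239 ± 37.3 in sgCcnd1. Cybb, the phagocyte NADPH oxidase subunit, was at 209 ± 14.6 and 150 ± 27.3, and P2rx7, an ATP-gated channel of macrophages, at 78.9 ± 10.3 and 50.7 ± 9.17. Nprl3, the closest by Pearson r, was at 241 ± 15.8 and 200 ± 13.6, and Ccdc162 at 98.8 ± 5.86 and 90.6 ± 2.39. With group means subtracted, the closest genes were others: Htt (Pearson r = 0.99, Spearman rho = 0.98), Hipk2 (0.98 and 0.97), Sik2 (0.98 and 0.97), Zhx3 (0.98 and 0.88) and Prox1 (0.98 and 0.95). Prox1, a transcription factor of hepatocytes and lymphatic endothelium, was at 569 ± 270 and 504 ± 194, and Htt, which encodes huntingtin, at 533 ± 88.0 and 475 ± 62.2. The group differences of Prox1 and Htt were -0.15 and -0.16, within 2 standard errors (0.34 and 0.13). Those of Hipk2, Sik2 and Zhx3 had the other sign, at 0.05, 0.14 and 0.30 (standard errors 0.40, 0.26 and 0.22). All genes named in this paragraph were picked as the highest over all genes at or above that mean, and no p is given for them.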

How the data were processed

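Poly(A) RNA-seq libraries of mouse liver were compared, 4 sgRosa26 against 5 sgCcnd1. The submitters' processing notes name Trim Galore 0.6.7, HISAT2 2.2.1, featureCounts 2.0.3 and DESeq2 (wrapper version 2.11.40.8) with mm10 (GRCm38), without giving roles. The deposited values are a signal that the file name calls normalized counts. In each library 100% of them were whole multiples (within 0.01) of the value of 1 read, so reads were recovered. For library H that value is close to 1, at 0.999582. The deposited values of H were not whole numbers themselves, such as 3293.62 for 3295 reads of Plxnb2. The labels number the libraries as replicates without stating that each is a separate animal, so p-values measure only the spread between these samples.

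Log2(normalized count + 1) of the 12993 genes whose mean reached 10 normalized counts was fitted with limma 3.58.1 (R 4.3.3, lmFit and eBayes with trend, two-sided, no covariates), with Benjamini-Hochberg adjustment over all of them and a threshold of 0.05. This scale understates fold changes of low genes. Recovered reads of the same genes went into edgeR 4.0.16 and DESeq2 1.42.0, which left 254 adjusted p-values undefined. The fits were tested on simulated counts. Lengths, positions and coding sequences came from GENCODE M21, aligned with Biopython 1.88, and promoters from RefSeq. Named list genes are the 4 with the smallest limma p and the 4 with the highest mean (2 for markers), and others for their known binding to a plexin. Pattern genes are the 5 with the highest r. The members and lists were chosen with earlier results of these data known.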

Additional observations from a re-analysis of the deposited data

Results flagged for a closer look

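Of 48 groups of values examined (each plexin, Ccnd1, each list sum, depth and the Y-linked sum, in either group), 5 held a library far from the rest of its group, where chance gives about 2.4. Plxnd1 was at 547 normalized counts in library E of sgCcnd1 against 386 to 418 in the other 4. The T and NK cell markers summed to 193 normalized counts in the same library against 53.0 to 84.2. Library A of sgRosa26 held 12.2 M assigned reads (M stands for mega), where the remaining controls held 16.2 to 16.6 M. The summed Y-linked genes stood at 1619 normalized counts in library B of sgRosa26 against 2517 to 2623, and at 2.00 in library H of sgCcnd1 against 2405 to 2834.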

How the results depend on the processing

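No paired analysis was possible because column names hold no replicate number. Lengths other than the exon union and fits of edgeR and DESeq2 without H were added after seeing the data. Plxna2 kept its direction in all 18 alternatives (-0.68 to -0.52). Because its groups did not overlap, a dropped library, another added count or another minimum mean could not turn this sign. The signs of Plxna3 (2 of 17) and Plxnc1 (6 of 18) changed in some, and those of the other 5 tested plexins in none. Genes called higher, 0 by limma, were 34 by DESeq2 and 11 by DESeq2 without H. Genes called lower, 1 by limma, were 70 and 27, 0 by edgeR without H, and 0 to 2 leaving out a library each. Ligands called lower were 1 by DESeq2 (0.539% of all genes), and 0 by DESeq2 without H and by edgeR. Ccnd1 lay between -1.11 and -0.96 leaving out a library each, with an adjusted p over 0.05 when B, D, F, H or I was dropped (0.0559 to 0.0852), and at -1.02 by edgeR without H (0.0559). The cause was not tested. The genes under the minimum mean, Plxnb3, Sema3e and Sema7a among them, had too few counts to be tested.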
